A study of Mus musculus with 8 samples.

Results

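The genes described here encode the TGF-beta ligands (Tgfb1, Tgfb2 and Tgfb3), their receptors (Tgfbr1, Tgfbr2 and the coreceptor Tgfbr3), the latent TGF-beta binding proteins Ltbp1, Ltbp2 and Ltbp3, and Tgfbi, a secreted matrix protein named for its induction by TGF-beta. They were chosen by symbol, and all 10 were found among the 13387 genes of the RNA-Seq count table. Of these, 8 passed edgeR's filter on low counts, as did 11722 of all genes, and Tgfb2 and Ltbp2 did not pass. The table holds 8 libraries from primary wild-type C57BL/6 mouse bone marrow. In 4 of them megakaryocytes (MKs, the marrow cells that shed platelets) were cultured alone, and in 4 they were cocultured for 18 hours with MSCs, the stromal cells of the marrow. The MSCs had been sorted as CD45-Ter119-CD31-CD51+CD140a+, and the MKs had been enriched from marrow with beads against CD41, so the enriched cells could include other marrow cells. Wells were pooled for each library. The labels describe the sequenced cells as MKs freed of platelets, whereas the study's methods describe platelets made in the cultures. The study describes the replicates of this experiment as mice, and the labels number the libraries without naming animals.

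TGF-beta is secreted as a latent dimer, held inactive by its own cleaved propeptide and usually bound to an LTBP, which anchors it in the matrix. Integrins, thrombospondin and proteases can free the ligand, which then joins the type II receptor TGFBR2 to the type I receptor TGFBR1 and signals through SMAD transcription factors, while TGFBR3 (betaglycan) presents ligand to the receptors, TGF-beta2 above all. In bone marrow, MKs and platelets are a well-known store of TGF-beta1, in their alpha granules, and the cytokine is known for its part in marrow fibrosis and in holding hematopoietic stem cells quiescent.

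The promoters of Tgfb1, Tgfb2 and Ltbp1 are shown, a choice made after the values of these genes were seen. Tgfb1 made up most ligand transcript in the libraries of MKs cultured alone, while Tgfb2 was near 0 there. Ltbp1 had the highest mean level per length in cocultures. Each sequence holds the 250 bases before the RefSeq start of the gene on GRCm38.p6, written on the gene's own strand. They lie at chr7:25686752-25687001 (plus strand) for Tgfb1, chr1:186705990-186706239 (minus strand) for Tgfb2 and chr17:75005279-75005528 (plus strand) for Ltbp1. Capitals mark CAGACA (a SMAD-type motif), TGANTCA (AP-1) and GGGCGG (a GC box), each searched on both strands.
Tgfb1: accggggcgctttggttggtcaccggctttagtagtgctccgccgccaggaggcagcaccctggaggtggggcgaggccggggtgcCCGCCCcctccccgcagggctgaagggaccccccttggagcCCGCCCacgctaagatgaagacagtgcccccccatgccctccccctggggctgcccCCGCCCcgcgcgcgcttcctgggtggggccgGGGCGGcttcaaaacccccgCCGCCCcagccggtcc
Tgfb2: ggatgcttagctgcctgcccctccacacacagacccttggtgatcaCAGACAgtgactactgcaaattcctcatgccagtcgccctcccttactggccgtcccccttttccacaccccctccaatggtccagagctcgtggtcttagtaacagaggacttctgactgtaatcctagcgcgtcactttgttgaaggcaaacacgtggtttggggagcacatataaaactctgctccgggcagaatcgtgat
Ltbp1: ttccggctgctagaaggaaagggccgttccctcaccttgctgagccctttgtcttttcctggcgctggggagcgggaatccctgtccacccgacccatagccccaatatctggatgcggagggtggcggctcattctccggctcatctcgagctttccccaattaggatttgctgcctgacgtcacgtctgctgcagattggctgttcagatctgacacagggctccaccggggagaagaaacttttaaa
The Tgfb1 window held 5 GC boxes, none overlapping another, and had a GC content of 75.2%. The Tgfb2 window held 1 SMAD-type motif and had a GC content of 53.6%, and the Ltbp1 window shown held none of the motifs and had a GC content of 56.8%. The other Ltbp1 window, before a RefSeq start further into the gene (chr17:75178531-75178780), held 2 SMAD-type motifs. Among the other genes, the window of Ltbp2 held 2 GC boxes, that of Tgfbi 1, and those of Tgfbr2 and Ltbp3 none of the motifs. Of the Tgfbr1 windows, the first held 2 GC boxes and the other 1 SMAD-type motif. Whether any motif bears on the levels was not tested. Among 32851 promoter windows of this length, 32.7% held a GC box, 17.1% the SMAD-type motif and 6.75% the AP-1 motif. RefSeq entries were matched for 8 of the 10 genes, with 10 windows in all. The genes without an entry were Tgfb3 and Tgfbr3.

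Libraries held between 4939874 and 12523616 counts. Levels are given in CPM, which puts a gene's counts relative to the total of its library after edgeR's TMM scaling. A floor of 3 counts was 0.283 to 0.660 CPM and covers counting error only. Coculture replicate 3 stood apart. Counts were present on 10735 genes there and on 12406 to 13193 in the other libraries, and it was at 0 for 1012 genes with 10 or more counts in each of the other libraries, against at most 4 such genes elsewhere. Values are therefore also given without this library. The labelled cell type was checked against its markers, and the summed CPM of 15 MK and platelet markers was 2369 to 2621 in MKs cultured alone and 1808 to 2383 in cocultures, with 1 marker (Nfe2) called lower and 0 called higher by edgeR. The median log2 fold change of the 15 markers was -0.39. Without coculture replicate 3, 4 were called lower (Gp1ba, Gp6, Gata1 and Nfe2). Markers of other cells also differed between the groups. The summed level of the 11 MSC markers in the table (of 13 listed) was 99.6 to 123 CPM alone, and 2928, 3849, 1174 and 2706 CPM in coculture replicates 1 to 4. Of the 9 MSC markers tested, 6 were called higher and 1 (Nt5e) lower, while Lepr and Kitl were at 0 in coculture replicate 3. Macrophage markers summed to 157 to 234 CPM alone and 1038 to 2062 CPM in coculture, with 9 of 10 tested called higher, and Marco was at 0 in all libraries of MKs alone. Neutrophil markers summed to 78636 to 81336 CPM alone and 4208 to 9634 CPM in coculture, and 10 of 10 were called lower. In the libraries of MKs alone this neutrophil sum was far above that of the MK and platelet markers. The name MKs alone thus stands for the culture, and its values are those of mixed marrow cells. Sums for B cell markers were 878.8 to 939.1 CPM alone and 90.8 to 232.5 CPM in coculture (4 of 8 tested called lower), and for T and NK cell markers 128.4 to 218.9 and 1.04 to 29.7 CPM (3 of 6). Endothelial markers summed to 113.7 to 135.5 and 33.4 to 173.2 CPM (1 of 4 called lower), and erythroid markers to 38.7 to 62.5 and 19.6 to 93.4 CPM (0 of 5 called). When that library was left out, 4 endothelial and 4 erythroid markers were called lower, as were 6 B cell and 6 T and NK cell markers, while 8 MSC and 11 macrophage markers were called higher. The part of these cells in the values below was not tested, and in bulk libraries fewer cells of a type and less RNA per cell cannot be told apart.

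A gene was called when it differed at least 2-fold by edgeR's quasi-likelihood test, with a p of at most 0.05 after Benjamini-Hochberg adjustment, and had a mean of at least 1 CPM in a group. In cocultures 3 of the 8 tested TGF-beta genes, Tgfb3, Tgfbr3 and Ltbp1, were called higher, where 13.2% of all genes tested were. By edgeR 0 were called lower, where 7.31% of all genes were, and 0 of the lower genes had an unadjusted p under 0.05. DESeq2 called 1 lower, Tgfb1, where it called 3116 of all genes in either direction. In either direction edgeR called 2401 of all genes (20.5%). A fit with no filter on low counts brings in Tgfb2 and Ltbp2. It called 5 higher against 13.5% of all genes, and 0 lower against 6.66%. Tgfb3, which passed the filter through the cocultures, and Tgfb2 and Ltbp2 were near 0 in MKs alone. These genes could be called higher but not lower. Without coculture replicate 3, 6 were called higher, among them Ltbp3, against 20.6% of all genes, and 0 lower against 15.4%. The median log2 fold change was 0.60 over the 8 genes and 0.034 over all genes tested. Over all 10 genes it was 2.16 with no filter (0.099 over all genes) and 1.92 without coculture replicate 3 (0.030 over all genes).

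**Figure D1:**
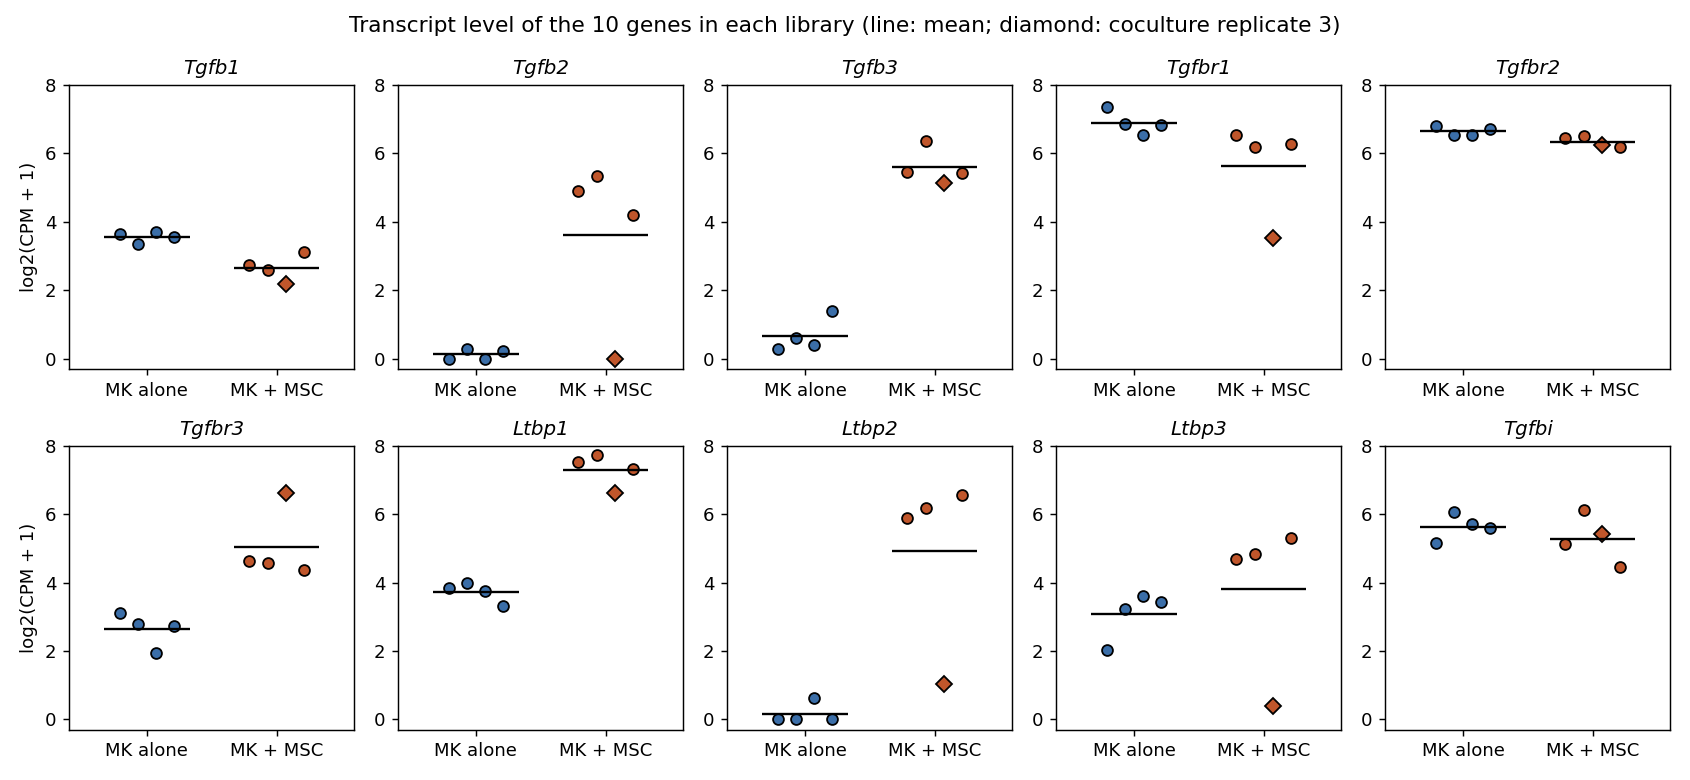
Level of each of the 10 genes in every library, as log2(CPM + 1), with 4 libraries of MKs cultured alone (blue) and 4 cocultures (red). Lines are group means and the diamond is coculture replicate 3. Tgfb3 and Ltbp1 lie higher in every coculture, and for Tgfb2, Tgfbr1, Tgfbr3, Ltbp2 and Ltbp3 the diamond lies far from the other cocultures.

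Among the ligands, Tgfb3 rose in cocultures, Tgfb2 had counts in 3 of 4 of them and was called higher in the fit with no filter, and Tgfb1 did not pass edgeR's test. Tgfb1, the form stored in platelet granules (7:25687002-25705077, plus strand, GRCm38), had 11.4, 9.24, 12.0 and 10.9 CPM in MKs alone and 5.67, 5.06, 3.55 and 7.61 CPM in cocultures. Every coculture lay below every library of MKs alone, without overlap, and 21.1% of all genes tested were separated in that direction. The means were 10.9 ± 1.20 and 5.47 ± 1.68 CPM (SD, n = 4), a log2 fold change of -0.99 ± 0.47 (SE, adjusted p = 0.162). DESeq2 gave -1.03 with an adjusted p of 0.0084, which passed. With the replicate number as a block, DESeq2 gave -1.06 with an adjusted p of 0.0847, which did not pass. Without coculture replicate 3 edgeR gave -0.86 (adjusted p = 0.0180), short of 2-fold.

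Tgfb3 (12:86056745-86079041, minus strand) encodes a ligand known for its part in palate and lung development. It had 0.220, 0.513, 0.331 and 1.62 CPM in MKs alone, from 1, 5, 3 and 10 counts. In cocultures it had 43.3, 80.5, 34.2 and 41.7 CPM, so that the lowest coculture lay far above the highest library of MKs alone and replicate 3 was near the others. Of all genes tested, 19.3% were separated in that direction. The log2 fold change was 6.19 ± 0.70 (SE, adjusted p = 3.51e-04), a 73.1-fold difference, and it was 6.35 without coculture replicate 3. Leaving out replicate 4 of MKs alone, which held 10 of the 19 counts of that group, gave a 127.7-fold difference (adjusted p = 4.46e-04). Exons of Tgfb3 share 163 and 257 bases with the noncoding genes Gm37804 and Gm48008 on the other strand. It shares 0 exon bases with Ttll5, which also lies there, and counting is not stated to use strand.

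Tgfb2 (1:186622792-186705989, minus strand) encodes a ligand that depends on betaglycan to bind its receptors well. It had 0, 2, 0 and 1 counts in MKs alone and 306, 304, 0 and 100 counts in cocultures, or 28.9, 39.5, 0 and 17.3 CPM in the latter. Coculture replicates 1, 2 and 4 thus held the transcript clearly, while replicate 3 had none, which allows up to 0.313 CPM. The pooled ratio over all libraries was 207.4 (95% counting interval 70.7 to 1008). This interval covers counting error only and leaves out the spread between libraries. In the fit with no filter the log2 fold change was 7.53 ± 1.78 (SE, adjusted p = 0.0173). It was 7.91 ± 0.53 (adjusted p = 1.76e-09) in that fit without coculture replicate 3. Leaving any 1 library of MKs alone out of that fit ended the call, with adjusted p values of 0.0519 to 0.0616. With the filter, the call was kept without replicate 2 of MKs alone, at an adjusted p of 0.04999. The antisense gene Gm29491 shares 124 exon bases with Tgfb2.

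To compare ligands with each other, CPM was divided by the length of the longest coding transcript in GENCODE vM21 (2.175 kb for Tgfb1, 5.116 kb for Tgfb2 and 3.383 kb for Tgfb3). On this scale Tgfb1 made up 98.8%, 95.7%, 98.3% and 90.7% of ligand transcript in the 4 libraries of MKs alone, and 12.4%, 6.88%, 13.9% and 18.2% in cocultures 1 to 4. The groups did not overlap, with means of 95.9% ± 3.69 and 12.8% ± 4.68 (SD, n = 4). Tgfb3 took 3.77% ± 3.42 alone and 70.3% ± 11.2 in coculture, and was the largest share in all 4 cocultures, replicate 3 included at 86.1%. Tgfb2 took 0.370% ± 0.448 alone and 16.8% ± 11.8 in coculture, with 0% in replicate 3 and 17.6% to 26.8% in the other cocultures. Summed ligand level was 5.23 ± 0.539 CPM per kb alone and 21.4 ± 9.18 CPM per kb in coculture, and these sums did not overlap either (4.44 to 5.64 against 11.7 to 33.8). MSC and macrophage markers moved in the same libraries, as given above.

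**Figure D2:**
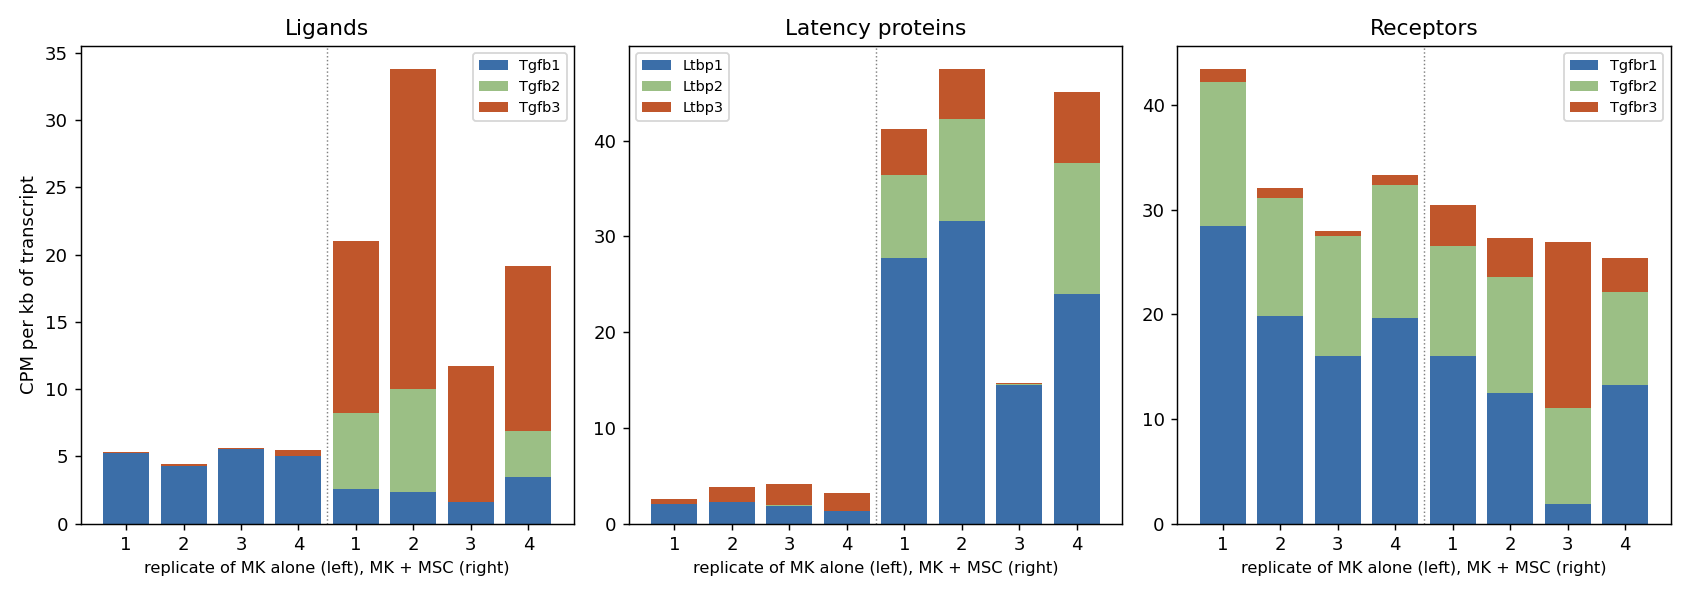
CPM per kb of transcript in each library for ligands, latency proteins and receptors, stacked by gene, with replicates of MKs cultured alone at the left of each panel and cocultures at the right. Ligand bars are nearly all Tgfb1 alone and mostly Tgfb3 in coculture, and the receptor bar of coculture replicate 3 is 59.1% Tgfbr3.

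The receptors differed less. Neither signalling receptor was called, and the coreceptor Tgfbr3 rose. Tgfbr1 (4:47353222-47414931, plus strand), the type I kinase, had 164, 114, 92.4 and 113 CPM in MKs alone and 92.1, 72.2, 10.5 and 76.4 CPM in cocultures. The lowest library of MKs alone (92.4) lay just above the highest coculture (92.1), and 21.1% of all genes tested were separated in that direction. Replicate 3 lay far below the other cocultures. The log2 fold change was -0.94 ± 0.55 (SE, adjusted p = 0.250), and -0.61 ± 0.20 without coculture replicate 3 (adjusted p = 0.0177), which is under 2-fold.

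Tgfbr2 (9:116084293-116175360, minus strand), the type II kinase that binds ligand first, had 111, 91.8, 92.7 and 103 CPM alone and 85.8, 89.3, 74.4 and 71.9 CPM in coculture. The highest coculture lay just under the lowest library of MKs alone, and 21.1% of all genes tested were separated in that direction. The means were 99.8 ± 9.29 and 80.4 ± 8.47 CPM (SD, n = 4), a log2 fold change of -0.31 ± 0.18 (SE, adjusted p = 0.252). Of all members it had the smallest spread between libraries on the log2 scale in cocultures (SD 0.15), and replicate 3 did not stand apart in it.

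Tgfbr3 (5:107106570-107289629, minus strand) had 7.70, 5.85, 2.87 and 5.67 CPM alone and 23.9, 22.7, 97.1 and 19.5 CPM in coculture. Every coculture was higher, as for 19.3% of all genes tested, and here replicate 3 was the highest by far. The log2 fold change was 2.89 ± 0.65 (SE, adjusted p = 0.0130), a 7.41-fold difference. Without that library it was 2.01 ± 0.30 (adjusted p = 2.78e-05), or 4.02-fold. Per length, Tgfbr3 made up 1.69% to 2.99% of receptor transcript alone, 12.6% to 13.7% in cocultures 1, 2 and 4, and 59.1% in replicate 3. Tgfbr2 held 36.5% ± 4.02 alone and 36.1% ± 2.92 in coculture (SD, n = 4). Summed receptor level was 34.2 ± 6.60 CPM per kb alone and 27.5 ± 2.16 CPM per kb in coculture, with overlap.

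The latency proteins were led by Ltbp1, which rose in every coculture. Ltbp1 (17:75005568-75392512, plus strand), which anchors latent TGF-beta in the matrix, had 13.4, 15.0, 12.5 and 8.92 CPM in MKs alone and 184.7, 211.0, 96.2 and 159.9 CPM in cocultures. The groups were far apart, where 19.3% of all genes tested were separated in that direction, and replicate 3 was the lowest coculture. The log2 fold change was 3.71 ± 0.32 (SE, adjusted p = 8.98e-05), a 13.1-fold difference, and 3.87 without replicate 3. Ltbp1 kept its call with any 1 library left out.

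Ltbp2 (12:84783212-84876532, minus strand) is a family member that does not bind latent TGF-beta and is known for its part in elastic fibers and microfibrils. It had 0, 0, 5 and 0 counts in MKs alone and 622, 554, 10 and 537 counts in cocultures. In CPM the cocultures held 58.7, 71.9, 1.04 and 92.8, against 0.552 in the only library of MKs alone with counts. The groups did not overlap, where 19.3% of the genes that passed the filter were separated in that direction. Replicate 3 was much closer to MKs alone than to the other cocultures. In the fit with no filter the log2 fold change was 8.29 ± 1.57 (SE, adjusted p = 0.00618). Replicate 3 of MKs alone held all 5 counts of that group. Without it, Ltbp2 was at least 348.9-fold higher in the pooled counts of the cocultures, against a floor of 3 counts over the group. This bound does not hold for coculture replicate 3 taken by itself, which held 10 counts. In the fit with no filter the log2 fold change was 8.64 ± 0.47 without coculture replicate 3 (adjusted p = 1.50e-10). Exons of Ltbp2 share 764 bases with the antisense gene D030025P21Rik.

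Ltbp3 (19:5740904-5758532, plus strand), which also carries latent TGF-beta, had 3.08, 8.32, 11.2 and 9.89 CPM alone and 24.9, 27.3, 0.313 and 38.5 CPM in coculture. Replicates 1, 2 and 4 of the cocultures lay above all libraries of MKs alone, and replicate 3, with 3 counts, lay below all of them. Across all libraries the log2 fold change was 1.48 ± 1.01 (SE, adjusted p = 0.327), and without replicate 3 it was 1.84 ± 0.32 (adjusted p = 1.20e-04), so that the call depends on that library.

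Summed per length, the latency proteins were at 3.45 ± 0.670 CPM per kb alone and 37.1 ± 15.2 CPM per kb in coculture (SD, n = 4). Ltbp1 held 55.6% ± 16.1 of this alone and 71.4% ± 19.2 in coculture, and its shares overlapped between groups. Ltbp3 held 43.9% ± 15.8 alone and 9.90% ± 6.77 in coculture, where the highest coculture share, 16.5%, lay below the lowest of MKs alone, 22.8%. Ltbp2 held at most 1.99% alone and 1.05% to 30.4% in coculture.

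Tgfbi (13:56609523-56639562, plus strand), whose product links collagen and integrins, did not pass the test. It had 35.0, 66.0, 51.3 and 47.7 CPM in MKs alone and 33.9, 68.9, 41.6 and 20.7 CPM in cocultures. The groups overlapped over nearly their whole range, with means of 50.0 ± 12.8 and 41.3 ± 20.3 CPM (SD, n = 4). The log2 fold change was -0.28 ± 0.39 (SE, adjusted p = 0.651), while scaling to MK and platelet markers gave 0.059.

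**Figure D3:**
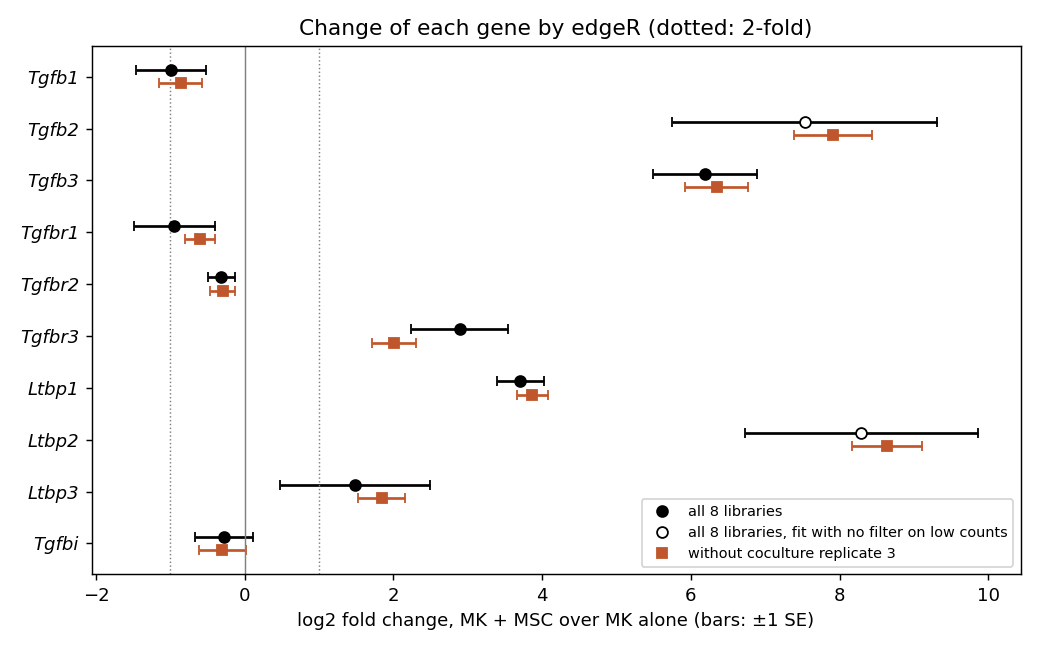
Log2 fold change of cocultures over MKs cultured alone for each of the 10 genes by edgeR, with bars of 1 SE. Black points are from all 8 libraries (open: fit with no filter on low counts), red squares are without coculture replicate 3, and dotted lines mark 2-fold. Values run from -0.99 for Tgfb1 to 8.29 for Ltbp2, and the bars of Tgfb2, Ltbp2 and Ltbp3 are much shorter without that library.

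Ordered by mean CPM per kb, MKs cultured alone had Tgfbr1 first (21.0), then Tgfbi (18.4), Tgfbr2 (12.3), Tgfb1 (5.01), Ltbp1 (1.87), Ltbp3 (1.56), Tgfbr3 (0.908), Tgfb3 (0.198), Ltbp2 (0.020) and Tgfb2 (0.018). Only the steps from Tgfbr2 to Tgfb1 and from Tgfb1 to Ltbp1 were free of overlap between library ranges. The ranges of all other neighbours overlapped, those of Tgfbr3 and Tgfb3 only just (lowest 0.472 and highest 0.479). In cocultures the order began with Ltbp1 (24.4), Tgfbi (15.2), Tgfb3 (14.7), Tgfbr1 (10.9) and Tgfbr2 (9.93) and went on to Ltbp2 (8.29), Tgfbr3 (6.70), Ltbp3 (4.39), Tgfb2 (4.19) and Tgfb1 (2.51). All neighbours overlapped there. Without replicate 3, Ltbp1 (27.8) was again first by mean, followed by Tgfb3 (16.3). Its lowest library (24.0) lay just above the highest of Tgfb3 (23.8) but below the highest of Tgfbi (25.4). Tgfb1 (2.81) was still last.

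The genes whose pattern was most like that of a member were those with the smallest root mean square difference of centered log2(CPM + 1) over the 8 libraries, among 8986 genes. For Tgfb1 these were Stx16 (0.075), Ing2 (0.127) and Zscan22 (0.137), which ran between 20.2 and 29.8 CPM alone and between 7.30 and 17.5 CPM in coculture. For Tgfb3 they were Mrc2 (0.263), Gpc4 (0.271) and Bok (0.295), each at or under 2.27 CPM in every library of MKs alone and at or over 19.9 CPM in every coculture. For Tgfbi they were Plekhg3 (0.289), 2900026A02Rik (0.291) and Ilf2 (0.293), none of which was called.

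The wider pathway was described with 77 genes in 6 lists, of which 64 were in the table and 58 were tested. In cocultures 27 were called higher, 4 lower and 27 neither, where 13.2% of all genes tested were called higher and 7.31% lower. The median log2 fold change was 2.36, against 0.034 over all genes. Without coculture replicate 3, 36 were called higher and 3 lower, against 20.6% and 15.4% of all genes. These shares are the background for each list below. Listed genes near 0 in MKs alone, such as Fbn1, Vasn, Ccn1, Ccn2, Col3a1, Bgn and Grem1, passed the filter through the cocultures. They could be called higher but not lower, so the counts and medians of the lists are descriptions and no test. Eng, Col1a1, Col1a2 and Col3a1 are also among the MSC markers, so these counts and the marker counts are not independent.

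Among proteins that anchor or free latent TGF-beta, 6 of 11 tested were called higher and 3 lower, with a median log2 fold change of 2.64. Thbs1, whose product thrombospondin-1 can activate latent TGF-beta, rose from 164.9 ± 28.4 to 1974 ± 766.0 CPM (SD, n = 4). Its log2 fold change was 3.58 ± 0.36 (SE, adjusted p = 2.01e-04). The groups did not overlap, where 19.3% of all genes tested were separated in that direction. Fbn1, the fibrillin to which LTBPs attach, was at 0 to 0.440 CPM alone and 135.2 to 199.5 CPM in coculture. Mmp2, a matrix metalloprotease, had a log2 fold change of 4.71 ± 0.55 (adjusted p = 4.23e-04).

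Lrrc32 encodes GARP, which holds latent TGF-beta on the surface of platelets and regulatory T cells. It had 0.810 to 1.23 CPM alone and 162.2, 216.5, 0.209 and 247.2 CPM in coculture, with replicate 3 below all libraries of MKs alone. The call (log2 fold change 7.21 ± 1.51, adjusted p = 0.00933) was held without that library at 7.60. The genes called lower were Mmp9, a gelatinase of neutrophil granules (log2 fold change -2.92), the integrin subunit Itgb6 (-3.27), and Nrros, which holds latent TGF-beta on myeloid cells (-1.01), all named after their values were seen. Nrros was not called without coculture replicate 3 (-0.82), and Mmp9 fell in the same libraries in which neutrophil markers were lower, whose part was not tested.

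Among the other receptors, coreceptors and decoys, 3 of 10 tested were called higher and 0 lower by edgeR, with a median log2 fold change of 0.65. They were Vasn, which binds TGF-beta outside the cell (6.86 on the log2 scale), Cd109, a TGF-beta coreceptor (6.35), and Acvr1, a type I receptor for BMPs (4.35). Cd109 had 0.104 CPM in coculture replicate 3 and 24.2 to 43.7 CPM in the others. Bmpr1a, the highest of the list, had a log2 fold change of 0.89 (adjusted p = 0.0494), which is under 2-fold. Without coculture replicate 3 it was called at 1.02 (adjusted p = 5.68e-04), as was Acvr2a (named after its values were seen), so that 5 of the list were then called higher.

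Among the SMADs and their regulators edgeR called 1 of 16 higher and 1 lower, with a median log2 fold change of 0.32, where 13.2% and 7.31% of all genes were called. When coculture replicate 3 was left out, 5 were called higher (Pmepa1, and also Smad6, Smurf1, Smurf2 and Zfyve9, named after their values were seen) and 1 lower, against 20.6% and 15.4% of all genes. Pmepa1, an inhibitor of SMAD signalling that TGF-beta induces, rose from 23.8 ± 6.59 to 144.0 ± 48.0 CPM (SD, n = 4), a log2 fold change of 2.60 ± 0.33 (SE, adjusted p = 6.74e-04). Skil, which encodes the SMAD repressor SnoN, fell by 1.32 on the log2 scale (adjusted p = 0.00529). Their groups did not overlap, where 19.3% of all genes tested were separated with cocultures higher and 21.1% with cocultures lower.

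Of the genes classically induced by TGF-beta, 10 of 13 tested were called higher and 0 lower by edgeR, with a median log2 fold change of 6.87. Acta2, the smooth muscle actin of myofibroblasts, had 26.4 to 36.9 CPM alone and 991.1, 1646, 2303 and 984.0 CPM in coculture. It rose 5.56 ± 0.37 on the log2 scale (SE, adjusted p = 2.65e-05). Ccn1, a matricellular protein, had 0 counts in MKs alone. It was at least 1909-fold higher in the pooled counts of the cocultures, against a floor of 3 counts over the group. Its relative Ccn2, also known as connective tissue growth factor, had 2 counts alone and 27592 in coculture, a ratio of 12089 (95% counting interval 3346 to 99829). Col3a1, a fibrillar collagen and MSC marker, had 1 count alone and 9248 in coculture, a ratio of 8104 (95% counting interval 1454 to 320117). Both intervals are of pooled counts and leave out the spread between libraries.

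All 4 matrix proteoglycans and secreted antagonists tested were called higher, with a median log2 fold change of 8.25, or 7.55 with Grem1 at its lower bound. Bgn, which encodes biglycan, had 0.162 to 0.440 CPM alone and 503.7 to 1152 CPM in coculture. Grem1, a BMP antagonist, had 0 counts alone and was at least 1378-fold higher in the pooled counts of the cocultures. Bgn and Grem1 passed the filter through the cocultures and could not have been called lower. Fstl3, an activin antagonist, had a log2 fold change of 4.67 (adjusted p = 0.0429) and 0.104 CPM in coculture replicate 3. Of 4 genes tested from a list of other superfamily ligands, with a median log2 fold change of 4.19, 3 were called higher. They were Gdf15 (5.16 on the log2 scale), the activin subunit Inhba (4.88) and Bmp1 (3.50). Despite its name, the product of Bmp1 is no ligand but a protease that cleaves procollagen and LTBP1. It is counted in this list's median and in the pathway totals.

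**Figure D4:**
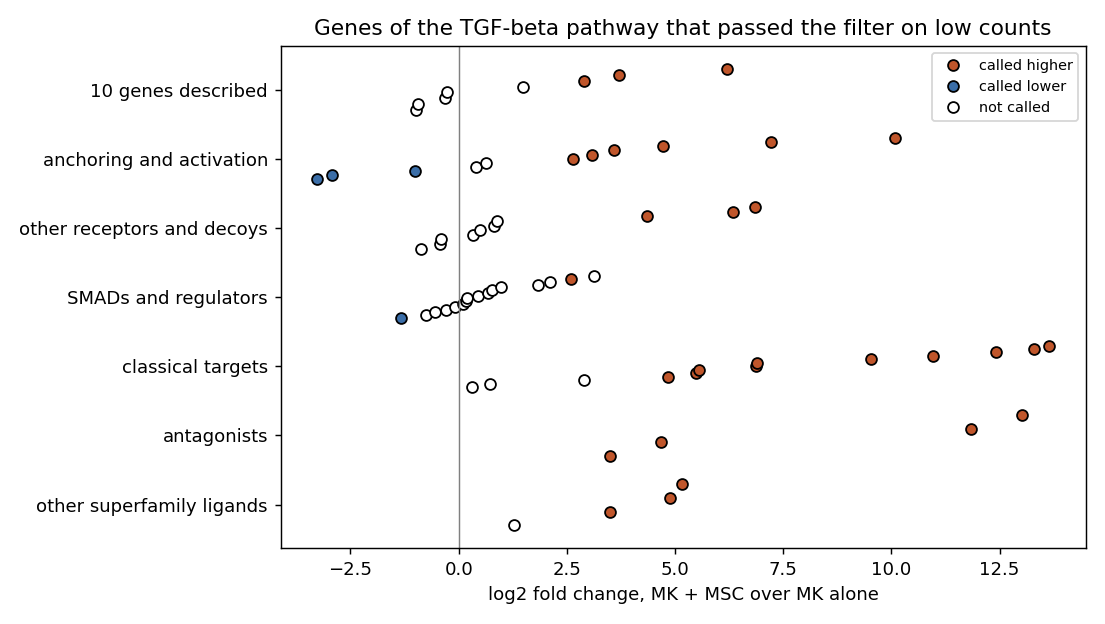
Fitted log2 fold change of cocultures over MKs cultured alone for the members and the 6 pathway lists, with 1 point per gene that passed the filter on low counts and called genes filled. Of the listed genes 27 are called higher and 4 lower, and the SMADs and their regulators lie between -1.32 and 3.13. Ccn1 and Grem1 had 0 counts in MKs alone, so their plotted values depend on edgeR's prior count.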

How the data were processed

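Bulk RNA-Seq of 8 libraries was analysed. The authors deposited raw whole-number counts per gene symbol, made from paired-end low-input SMART-Seq HT libraries with fastp and kallisto on the mm10 transcriptome. The summing over transcripts and the use of strand are not given in the sources used here. Groups and replicate numbers came from the labels.

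The test was the quasi-likelihood F test of edgeR 4.0.16 (R 4.3.3), run robustly after filterByExpr and TMM scaling, with Benjamini-Hochberg adjustment over all genes tested and no covariate, because the study's batches are not named. Genes were called after the study's cutoffs, with CPM in place of TPM. The SE is the log2 fold change divided by the square root of F. Tgfb2 and Ltbp2 came from the fit with no filter. DESeq2 1.42.0, other scalings and filters, a replicate block and leaving out each library were alternatives. Combining the fit with no filter with the other alternatives, for Tgfb2 and Ltbp2, was chosen after seeing the data. On simulated data of 12208 genes, edgeR and DESeq2 each called all 200 genes changed 8-fold and 3 others. The simulation used the same dispersion for every gene and held no library that stood apart. The changed genes were drawn from those with ample counts. It therefore does not show how well genes with few counts, or libraries that differ as these do, are called.

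All 10 members were named. From each pathway list the 3 called genes with the largest change and the gene with the highest mean CPM were named, and 3 genes most like Tgfb1, Tgfb3 and Tgfbi. Members and lists were chosen with earlier results of these data known. Gene positions, lengths and overlaps came from GENCODE vM21 on GRCm38, and promoters from RefSeq on GRCm38.p6. The result of 1 gene is not reported here.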

Additional observations from a re-analysis of the deposited data

Results flagged for a closer look

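Each of 26 groups of 4 libraries was examined for a library far from the other 3, and 5 held one. By chance about 1 in 20 independent groups, or 1.3, would hold one. The same libraries recur across these groups, so the groups are not independent and the comparison is no test. Of the 5, 4 were coculture replicate 3. In that library log2(CPM + 1) was 3.53 for Tgfbr1, against 6.19 to 6.54 in the other cocultures, and 6.62 for Tgfbr3, against 4.36 to 4.64. It was 1.03 for Ltbp2, against 5.90 to 6.55, and 0.39 for Ltbp3, against 4.70 to 5.31. Tgfb2 was not among the groups flagged, though that library held 0 counts of it, against 306, 304 and 100 in the other cocultures. In MKs cultured alone, replicate 3 had a log2(CPM + 1) of 0.63 for Ltbp2, where the other 3 libraries were at 0. The cause of these values was not tested.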

How the results depend on the processing

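In all 2401 genes were called. Leaving out a library gave 1634 to 4420, the highest without coculture replicate 3. TGF-beta genes called higher numbered 3, but 5 with no filter on low counts and 3 to 6 with a library left out. Those called lower numbered 0, and 1 with DESeq2 (Tgfb1) and 1 with DESeq2 and the replicate block (Tgfbr1, -1.27, adjusted p = 0.0459). Over all genes DESeq2 called 3116 in either direction, and 3171 with the block. Pathway genes called lower numbered 4, but 2 under scaling to MK and platelet markers, 2 with the replicate block, and 2 to 3 after a library was left out, which gave 24 to 36 called higher. Scaling to these markers shifted the all-gene median (log2) from 0.034 to 0.34, the share of higher genes among calls from 64.3% to 80.9%, and Tgfbi from -0.28 to 0.059, or -0.28 relative to that median. Without division by length, the share of Tgfb1 among ligands in cocultures was 8.04% and that of Tgfb2 in MKs alone 0.836%.

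Same-numbered libraries were not treated as pairs, because their deviations from the group means correlated at 0.0198 to 0.370 across genes and passed 0.1 in 2 of 4 pairs. Coculture replicates 2 and 4 did not correlate best with their own number. With the replicate block 2 TGF-beta genes were called higher (Tgfb3 and Ltbp1), where 1669 of all genes were called in either direction. Tgfbr3 was at 2.50 (adjusted p = 0.0874) and Ltbp2, with no filter, at 8.22 (adjusted p = 0.0941). Pathway genes not called with it were Lrrc32 (adjusted p = 0.116), Nrros (0.0854), Itgb6 (0.132), Fstl3 (0.0860) and Bmp1 (0.124). Of all values for single TGF-beta genes under alternatives, 164 kept direction and side of the threshold, 9 lost the call, 3 gained it and 1 changed sign. Why these values moved was not tested. Genes near 0 in MKs alone, such as Tgfb2 and Ltbp2, are limited by depth.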
